A study of Mus musculus with 12 samples.

Results

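The genes described here make cholesterol and fatty acids or control that work. The list held 32 gene symbols, and its members were the rows of the deposited expression table whose symbol equalled a listed one. Of the 32, 31 had a row among the 14560 genes of the table, and Scd1 was not analysed here. By role they were 7 enzymes of the mevalonate arm, which builds farnesyl diphosphate from acetyl-CoA, and 11 enzymes that turn it into squalene and then sterols. There were also 4 regulators, 3 enzymes of carbon supply and chain building for fatty acids, and 6 elongases and desaturases that extend fatty acids or place double bonds in them.

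The study sequenced RNA from 4 cell populations of C57BL/6 mouse bone marrow, with 3 libraries each and 12 in all. By its title it concerned E-cadherin (CDH1) as an early marker on progenitors that go on to basophils and mast cells. The design mentions 3 mice, but no label ties a library to an animal. The p-values here therefore reflect only how these libraries vary, and part of that variation may be technical. No population carried a mutation or treatment by its labels. All 4 were gated as negative for B220, Ter119 and Sca1. The 3 progenitor gates were also negative for CD3, CD11b and Gr1, and positive for c-Kit, CD34 and CD16/32. Within them, DN-GMPs carried neither CDH1 nor FceRIa, a chain of the IgE receptor. Pro-BMPs had CDH1 alone, and Pre-BMPs had FceRIa, with CDH1 given as absent. Basophils were negative for CD4, CD8a and c-Kit, and positive for CD49b and FceRIa. No mast cells were sampled.

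As background, animal cells make sterols by condensing acetyl-CoA to mevalonate, joining isoprene units into squalene, closing squalene into lanosterol and trimming lanosterol to cholesterol. The SREBP transcription factors, encoded by Srebf1 and Srebf2, are held in the endoplasmic reticulum by Insig proteins when sterols are plentiful, and are carried out by SCAP when sterols are low. They then raise many genes of both pathways, by binding sterol regulatory elements in promoters. Fatty acids are built from citrate-derived acetyl-CoA. Among the desaturases, the Scd enzymes make monounsaturated fatty acids, and the Fads enzymes take part in making long polyunsaturated ones. The polyunsaturated arachidonic acid is the source of the leukotrienes and prostaglandins that basophils and mast cells release.

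Levels are given in CPM, reads per 1000000 of the scaled library size that is built into the deposited values, as mean ± SD of 3 libraries. Reads on genes ranged from 29762981 to 42502405 per library, and 3 reads, the limit that a count of 0 allows, were 0.0512 to 0.0745 CPM. That limit covers counting error only. The scaled library size was 0.839 to 0.858 of the reads in the table in basophils and 1.03 to 1.08 in the 9 progenitor libraries, so that scaling by reads on genes instead lowers basophil levels against the others. The labels were checked against defining markers. The 10 basophil markers summed to 336 to 419 CPM in DN-GMPs and 40939 to 46521 in basophils, with Fcer1a at 0 reads in all DN-GMP libraries. The 11 neutrophil markers summed to 18938 to 21811 in DN-GMPs and 2942 to 4076 in basophils. Among them 6 were called lower in basophils than in DN-GMPs, Mpo, Elane, Prtn3 and Ctsg included, and 4 higher (Ltf, Camp, S100a9 and Retnlg). That is 54.55% and 36.36% beside 23.2% and 23.2% of all genes. The summed level of the 8 eosinophil markers averaged 2831 CPM in Pre-BMPs against 434 in basophils and 37.5 in DN-GMPs, with 2067 in Pro-BMPs. For 9 monocyte and dendritic cell markers the sum averaged 2194 CPM in DN-GMPs and 354 in basophils. That of 9 erythroid and megakaryocyte markers averaged 68.2 and 1506. Of these last, 4 were called higher in basophils than in DN-GMPs (Gata1, Klf1, Hba-a1 and Itga2b) and 2 lower (Pf4 and Gp9). That is 44.4% and 22.2% beside 23.2% and 23.2% of all genes. The 2 measured lymphoid markers summed to 30.4 to 76.3 CPM. Of the 4 measured mast cell markers, Cma1, Tpsb2 and Kit were called lower in basophils than in Pre-BMPs. Cpa3, also on the list of basophil markers, was called higher. That is 75% and 25% beside 16.5% and 13.9% of all genes. The mast cell list summed to 2206 CPM in Pre-BMPs and 3608 in basophils. Sums over the 6 measured macrophage markers stayed between 16.9 and 81.7 CPM in every library. In basophils against DN-GMPs 2 of them were called higher (C1qa and C1qb) and 2 lower (Cd68 and Vcam1), or 33.3% and 33.3% beside 23.2% and 23.2% of all genes. The listed markers of fat-storing cells, Adipoq, Plin1 and Fabp4, had no row, so these cells were not checked.

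Promoter sequences are shown for 4 genes, because the pathway is known for sharing sterol-responsive promoters while these genes moved in different directions here. The promoter table of RefSeq (build GRCm38.p6) had windows of 300 bases, 250 before and 50 after the start site, for 26 of the 32 listed genes. Sqle, Fdps, Fdft1, Fads1, Scd1 and Scd2 had none. The bases upstream of the start are printed below in lower case, without any base that lies in an annotated exon, and capitals mark 3 motifs on either strand. These are the core of the sterol regulatory element (TCACNCCAC), the CCAAT box (CCAAT) and the GC box (GGGCGG). Hmgcs1 was the only member whose window held the sterol core. Insig1, Lss and Sc5d were added after their values were seen, Insig1 as a gene that fell in basophils and Lss and Sc5d as genes that rose. The printed bases lie at chr13:119690101-119690350 on the plus strand for Hmgcs1, chr5:28071162-28071362 plus for Insig1, chr10:76531355-76531587 plus for Lss and chr9:42264301-42264550 minus for Sc5d.

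Hmgcs1: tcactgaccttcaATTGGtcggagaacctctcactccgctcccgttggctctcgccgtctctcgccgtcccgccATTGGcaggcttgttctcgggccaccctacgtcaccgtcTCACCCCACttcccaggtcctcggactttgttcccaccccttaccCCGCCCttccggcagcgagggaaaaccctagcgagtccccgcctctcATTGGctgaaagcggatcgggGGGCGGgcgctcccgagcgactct

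Insig1: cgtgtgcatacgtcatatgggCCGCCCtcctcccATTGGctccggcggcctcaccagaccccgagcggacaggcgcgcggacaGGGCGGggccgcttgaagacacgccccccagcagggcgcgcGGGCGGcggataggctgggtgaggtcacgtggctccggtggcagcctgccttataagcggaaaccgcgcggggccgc

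Lss: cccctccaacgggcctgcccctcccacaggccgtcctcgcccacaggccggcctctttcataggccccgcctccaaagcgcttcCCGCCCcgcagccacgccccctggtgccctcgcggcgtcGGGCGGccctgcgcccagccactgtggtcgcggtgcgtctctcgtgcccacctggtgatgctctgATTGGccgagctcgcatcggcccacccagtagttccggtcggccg

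Sc5d: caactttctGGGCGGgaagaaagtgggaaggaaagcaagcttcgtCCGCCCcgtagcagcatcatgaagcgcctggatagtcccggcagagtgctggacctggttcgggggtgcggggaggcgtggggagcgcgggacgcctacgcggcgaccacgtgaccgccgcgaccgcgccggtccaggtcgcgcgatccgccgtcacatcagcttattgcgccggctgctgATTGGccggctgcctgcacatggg

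In Hmgcs1 the sterol core reads TCACCCCAC and spans positions -137 to -129 before the start site. A window with the core was found for 1 of the 26 members (3.85%) and for 136 of the 9782 genes of the expression table that had a window (1.39%). The CCAAT box was in a window of 21 of 26 members (80.8%) against 43.2% of the genes in the table, and the GC box in 21 of 26 (80.8%) against 67.6%. Matches of different motifs overlapped at 1 place in the members' windows. Insig1, Lss and Sc5d each held a CCAAT box and GC boxes without the sterol core in these letters. These are matches of letters, described without a test.

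The 31 genes did not move as a block along the path from DN-GMPs to basophils. The polyunsaturated desaturases Fads1 and Fads2 rose, and the monounsaturated desaturase Scd2 fell at the last step. In basophils against DN-GMPs, 4 of the 7 genes of the mevalonate arm fell, and of the 11 late sterol enzymes 3 rose and 3 fell. Of all genes, 23.2% were called higher and 23.2% lower in that comparison. A moderated F-test over the 4 populations (limma, adjusted p under 0.05) called 16 of the 31 genes, beside 46.8% of all genes. The mean was highest in DN-GMPs for 10 genes, in Pro-BMPs for 5, in Pre-BMPs for 9 and in basophils for 7, and it was lowest in basophils for 16. These counts include the 15 genes that the F-test did not call, and the same counts over all genes were not made. These are bulk samples, in which fewer cells that express a gene and less RNA per cell cannot be told apart.

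**Figure D1:**
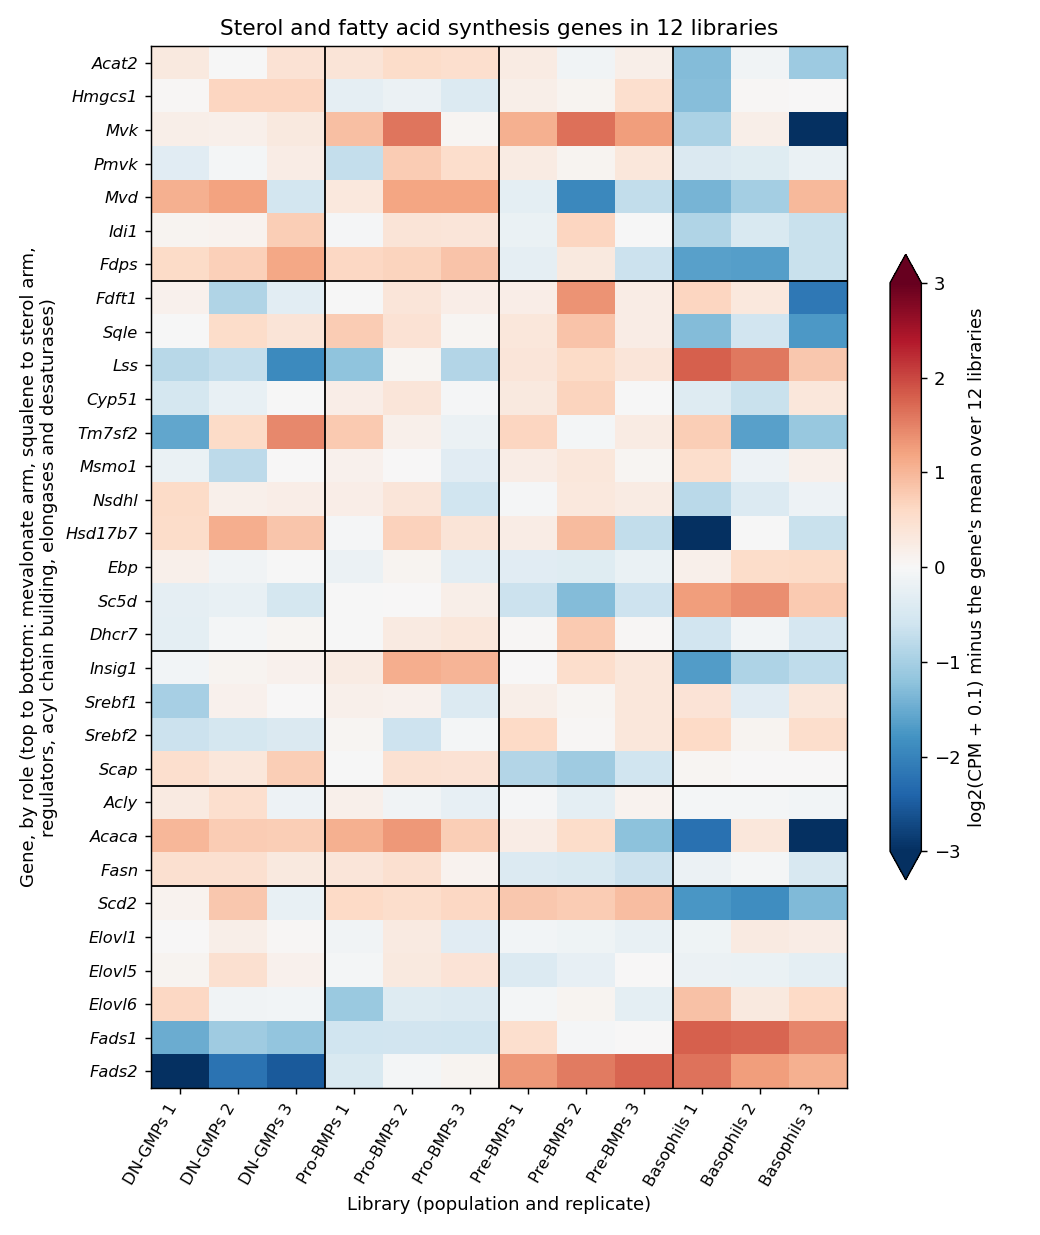
Map of 31 genes (rows, grouped by role) in 12 libraries (columns, grouped by population), coloured by log2(CPM + 0.1) minus the gene's mean over the libraries, with red above and blue below the mean. Fads1 and Fads2 run from blue in DN-GMPs to red in basophils, while Scd2, Sqle, Fdps and Insig1 are blue in basophils.

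From DN-GMPs to Pro-BMPs, the step at which CDH1 appears, 1 member was called higher and 0 lower, beside 2% and 0.536% of all genes (limma; at an unadjusted p under 0.05 the member counts were 3 and 2, and with voom weights 1 and 0). From Pro-BMPs to Pre-BMPs, 2 were higher and 3 lower, beside 4.8% and 4.69%. From Pre-BMPs to basophils, 4 were higher and 5 lower, beside 13.9% and 16.5%. From end to end, basophils against DN-GMPs, 6 were higher and 13 lower, which is 19.4% and 41.9% of members beside 23.2% and 23.2% of all genes. The median log2 change of the members in the 4 comparisons was 0.24, 0.03, -0.56 and -0.45, and that of all genes 0.02, 0.02, -0.10 and -0.01. The first 2 comparisons share the Pro-BMP libraries, and others share populations in the same way, so their counts are not independent.

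The count of 13 lower members rests in part on 1 library. Without basophil replicate 1, 6 of the 31 members were called higher and 6 lower in basophils against DN-GMPs. The same fit called 2987 of all 14560 genes higher and 3040 lower. Scaling by reads on genes, which moves the median of all genes to -0.42 (against Pre-BMPs) and -0.27 (against DN-GMPs), gave 3 higher and 10 lower members at the last step and 5 and 14 from end to end. Of all 14560 genes it called 1379 higher and 3813 lower at the last step, and 2702 and 4276 from end to end. The same change moved the share of called genes that were higher from 45.6% to 26.6% at the last step and from 50% to 38.7% from end to end.

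**Figure D2:**
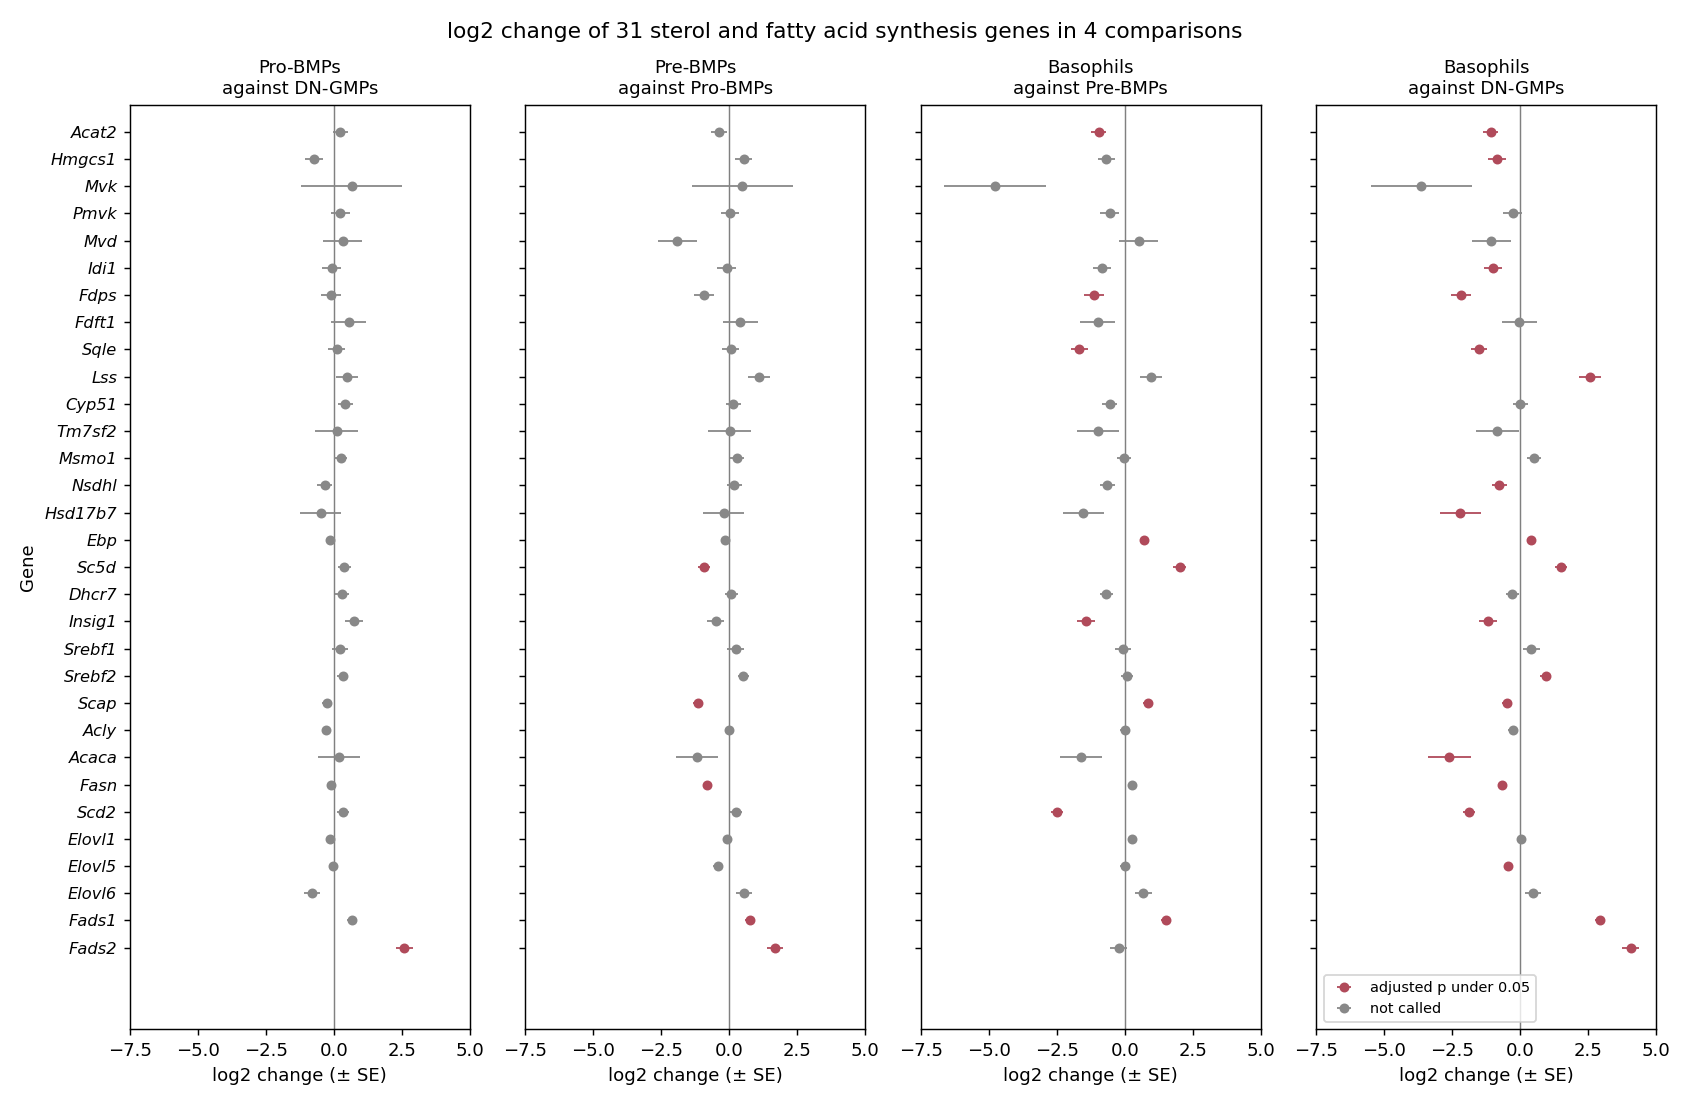
Log2 change with its SE (horizontal axis) of each of the 31 genes (vertical axis) in 4 comparisons, in red where the limma adjusted p was under 0.05 and in grey otherwise. In the right panel, basophils against DN-GMPs, Fads2 lies at 4.06 and Fads1 at 2.92, while all 7 genes of the mevalonate arm (Acat2 to Fdps) lie left of 0.

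Fads2 (ENSMUSG00000024665, GRCm38 chromosome 19, 10062765 to 10101746, minus strand) encodes the desaturase that opens the synthesis of long polyunsaturated fatty acids. It stood at 2.25, 5.27 and 4.20 CPM in the DN-GMP libraries and 17.9, 23.6 and 26.3 in Pro-BMPs. The later stages held 61.1, 72.4 and 82.8 (Pre-BMPs) and 76.0, 59.0 and 51.8 (basophils). Each population lay wholly above the one before it until Pre-BMPs, whose range overlapped that of basophils. The log2 change was 2.60 at the first step, a 6.04-fold rise (SE 0.308, limma adjusted p = 6.13e-04). It was 1.68 from Pro-BMPs to Pre-BMPs (adjusted p = 5.97e-03), and -0.22 from Pre-BMPs to basophils, which was not called (adjusted p = 0.64). From end to end Fads2 rose by 4.06 (adjusted p = 1.13e-06), the largest log2 rise of the 31 genes in that comparison. Its 3 calls held under every alternative that was run, and the counts behind them were 106 to 4324 reads per library.

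Fads1 (ENSMUSG00000010663, chromosome 19, 10182888 to 10196877, plus strand), the desaturase that completes arachidonic acid, went on rising where Fads2 had stopped. Its libraries stood at 18.3, 24.6 and 22.5 CPM in DN-GMPs and 33.9, 34.4 and 34.1 in Pro-BMPs. The libraries of Pre-BMPs gave 73.4, 50.3 and 51.9, those of basophils 179, 172 and 142. All libraries of each population lay above all those of the population before it. The first step, 0.66, was not called (limma adjusted p = 0.1). The second, 0.76, was called at an adjusted p of 0.024, but the call was lost without Pro-BMP replicate 1, 2 or 3 or Pre-BMP replicate 1 (0.0656, 0.0693, 0.0588 and 0.0799), and over all alternatives the adjusted p ran from 0.0149 to 0.0799. The last step was a 2.83-fold rise (log2 SE 0.181, adjusted p = 9.33e-05), and the rise from DN-GMPs to basophils was 2.92, or 7.55-fold (adjusted p = 2.37e-07). Both of these held under every alternative that was run. Fads2 over Fads1 in CPM, a ratio that was not planned, was 0.123 to 0.214 in DN-GMPs, 0.833 to 1.59 in Pre-BMPs and, in basophils, 0.344 to 0.424.

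Scd2 (ENSMUSG00000025203, chromosome 19, 44293674 to 44306864, plus strand), a stearoyl-CoA desaturase that makes monounsaturated fatty acids, fell at the last step, where Fads1 rose and Fads2 was not called. It stood at 155, 252 and 123 CPM in DN-GMPs and 217, 209 and 222 in Pro-BMPs. Pre-BMPs followed at 254, 245 and 276, and basophils at 43.0, 39.8 and 57.1. The progenitor libraries were all above all basophil libraries. The log2 change at the last step was -2.48, which is 5.60-fold lower (SE 0.22, limma adjusted p = 9.68e-06), and the log2 change from DN-GMPs to basophils was -1.87 (adjusted p = 3.72e-05). Neither of the earlier steps was called (0.36 and 0.26, adjusted p = 0.536 and 0.558). Scd2 has close paralogs, and reads that align to more than 1 place are not in its count, so its level is uncertain to that extent.

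Per kilobase of exon, Scd2 was above both Fads genes in each progenitor population and below both in basophils. Its level was 32.4 CPM per kilobase in DN-GMPs, 47.3 in Pre-BMPs and 8.54 in basophils. Fads1 stood at 4.53, 12.2 and 34.1 CPM per kilobase in these populations, and Fads2 at 1.19, 21.9 and 18.9. In CPM without length correction, Scd2 over the sum of Fads1 and Fads2 was 4.61 to 8.44 in DN-GMPs and 3.61 to 4.20 in Pro-BMPs. It was 1.89 to 2.05 in the next stage, Pre-BMPs, and dropped to 0.169 to 0.295 in basophils. The 4 ranges of this ratio did not overlap. The ratio was not planned and joins genes that moved apart, so this adds nothing to the calls of the single genes. Ratios of other genes were not counted for comparison. Summed over the 6 elongases and desaturases, the level moved little by comparison, with means of 556, 604, 668 and 589 CPM in the order of the path.

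**Figure D3:**
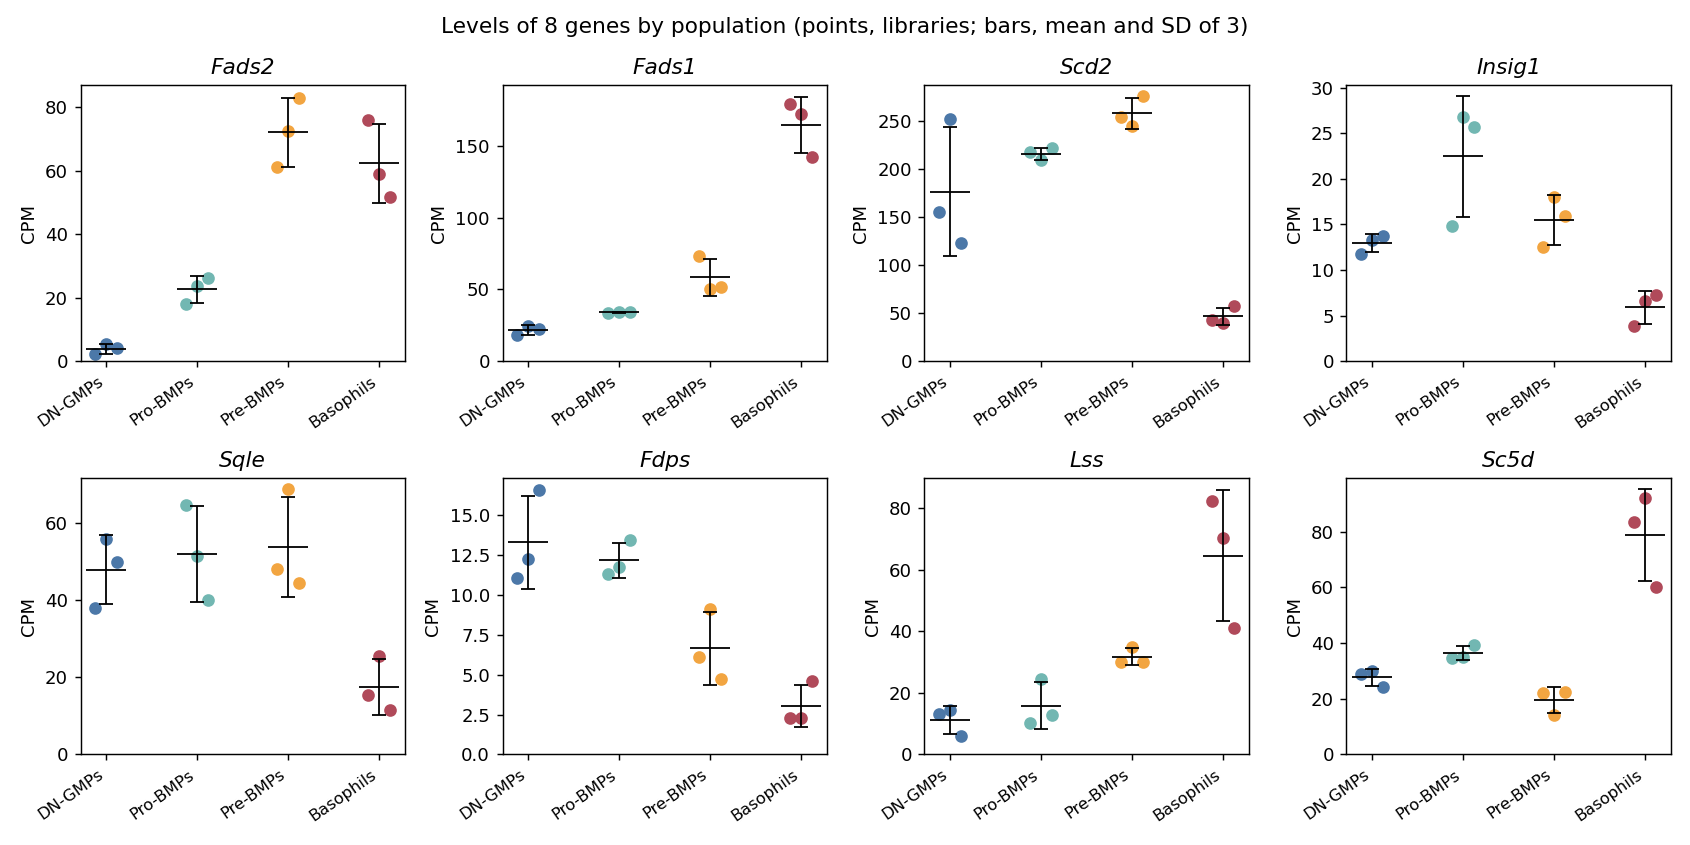
Levels of 8 genes in CPM (vertical axis of each panel, linear and starting at 0) against population (horizontal axis). Each point is 1 library, and the line and error bar give the mean ± SD over 3 libraries. Fads2 averages 3.91 in DN-GMPs and 72.1 in Pre-BMPs, Scd2 averages 258 in Pre-BMPs and 46.6 in basophils, and Lss and Sc5d are highest in basophils while Sqle, Fdps and Insig1 are lowest there.

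The elongases changed less. Elovl5, which extends polyunsaturated chains, averaged 180 ± 29.2 CPM in DN-GMPs and 131 ± 5.31 in basophils, with no overlap of libraries. The log2 change was -0.45 (limma adjusted p = 0.0328). The call was lost without DN-GMP replicate 2 (0.123) or any of basophil replicates 1, 2 and 3 (0.0597, 0.0609 and 0.0853), and over all alternatives the adjusted p of Elovl5 ran from 2.70e-03 to 0.123. Elovl6, which extends saturated and monounsaturated chains, was called by the F-test alone (adjusted p = 0.0262). It averaged 19.3 ± 5.98, 11.2 ± 3.00, 16.0 ± 2.06 and 26.1 ± 5.31 CPM along the path, lowest in Pro-BMPs and highest in basophils. Elovl1, which builds very long saturated chains, was not called in any comparison and averaged 154, 141, 131 and 159 CPM. Per kilobase of exon Elovl1 was the highest of the 31 genes in each of the 4 populations, at 48.1 to 58.5 CPM per kilobase.

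Of the 3 genes that supply carbon and build the chain, 2 were called lower and 0 higher in basophils than in DN-GMPs. That is 66.7% and 0% beside 23.2% and 23.2% of all genes. Fasn (ENSMUSG00000025153, chromosome 11, 120805846 to 120824547, minus strand), fatty acid synthase, stood at 130, 131 and 115 CPM in DN-GMPs and 121, 129 and 100 in Pro-BMPs. The later stages held 69.5, 67.7 and 59.2 (Pre-BMPs) and 82.3, 89.2 and 66.8 (basophils). Its drop came at the Pro-BMP to Pre-BMP step, with no overlap of libraries and a log2 change of -0.83 (SE 0.143, limma adjusted p = 4.32e-03). Basophils differed from Pre-BMPs by 0.27, which was not called (adjusted p = 0.18). Basophils were lower than DN-GMPs, with a log2 change of -0.67 (adjusted p = 2.68e-03), and both calls of Fasn held under every alternative that was run.

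Acaca, acetyl-CoA carboxylase, which makes the malonyl-CoA for the chain, was uneven between basophil libraries. It stood at 16.2, 13.7 and 13.5 CPM in DN-GMPs and 1.62, 10.2 and 0.784 in basophils, so basophil replicate 2 lay near the DN-GMP values. The log2 change of -2.61 (SE 0.777, limma adjusted p = 0.0168) lost its call without basophil replicate 1 (0.0558) or 3 (0.0626) and with only the 2 populations fitted (0.0609), and the adjusted p of Acaca ran from 3.33e-04 to 0.0626 over the alternatives. Acly, ATP citrate lyase, which frees acetyl-CoA from citrate, averaged 269, 221, 220 and 220 CPM and was not called.

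In the mevalonate arm all 7 genes had a lower mean log2 value in basophils than in DN-GMPs, also under each alternative that was run. By limma 4 were called lower and 0 higher, or 57.1% and 0% beside 23.2% and 23.2% of all genes. The counts were 4 and 0 at an unadjusted p under 0.05, and 3 and 0 with voom weights. The summed level of the arm was 132, 153 and 168 CPM in DN-GMPs and 125, 170 and 143 in Pro-BMPs. The libraries of Pre-BMPs gave 138, 138 and 150, those of basophils 54.0, 103 and 89.3. The basophil sums lay below all others, and basophil replicate 1 was the lowest library. No gene of the arm was called at either of the earlier steps. Of all genes, 2% were called higher and 0.536% lower at the first step, and 4.8% and 4.69% at the second. The arm's counts at an unadjusted p under 0.05 were 0 higher and 1 lower, then 0 higher and 2 lower. With voom weights they were 0 in both directions. At the last step 0 genes of the arm were called higher and 2 lower, or 0% and 28.6% beside 13.9% and 16.5% of all genes. The summed level of the 20 cell cycle genes was 5474 to 5960 CPM in DN-GMPs and 3952 to 4682 in basophils, where replicate 1 was again the lowest. From end to end 2 of the 20 rose (Mki67 and Top2a) and 10 fell, or 10% and 50% beside 23.2% and 23.2% of all genes. At the last step 1 of the 20 rose and 8 fell, or 5% and 40% beside 13.9% and 16.5%. The part of the cell cycle genes in the falls of the sterol genes was not tested.

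Fdps (ENSMUSG00000059743, chromosome 3, 89093588 to 89101959, minus strand), farnesyl diphosphate synthase, fell the most among the called genes of the arm. It stood at 11.1, 12.2 and 16.6 CPM in DN-GMPs and 11.3, 11.7 and 13.4 in Pro-BMPs. Pre-BMPs followed at 6.10, 9.14 and 4.71, and basophils at 2.31, 2.29 and 4.59. Every basophil library was below every other library. From DN-GMPs the log2 change was -2.17 (SE 0.373, limma adjusted p = 6.01e-04), which held under every alternative that was run. From Pre-BMPs it was -1.14 (adjusted p = 0.0378), a call lost without Pre-BMP replicate 1 or 2 or basophil replicate 1 or 2 (0.077, 0.146, 0.112 and 0.108), and 4 further alternatives lost it too, with the adjusted p of Fdps between 0.0109 and 0.146 over all of them. Exons of Gm43738 on the same strand cover 26.7% of the exon bases of Fdps in GENCODE M21, so its count is uncertain.

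Acat2, the cytosolic thiolase of the first step, stood at 38.7, 31.2 and 42.1 CPM in DN-GMPs and 12.6, 29.0 and 14.6 in basophils, with replicate 2 close to the progenitors. The log2 change of -1.09 (SE 0.28, limma adjusted p = 7.91e-03) held under every alternative that was run, while that from Pre-BMPs, -0.96 (adjusted p = 0.0228), was lost without Pre-BMP replicate 1 or 3 or basophil replicate 1 or 3 (0.0741, 0.0637, 0.0863 and 0.0754), in a range of 8.77e-04 to 0.0863 over all alternatives for Acat2. Hmgcs1 (ENSMUSG00000093930, chromosome 13, 119690379 to 119708260, plus strand), which makes hydroxymethylglutaryl-CoA and carries the sterol core printed above, stood at 42.4, 64.9 and 64.5 CPM in DN-GMPs and 16.9, 42.1 and 41.4 in basophils. Its log2 change was -0.86 (adjusted p = 0.0461), and the call was lost without DN-GMP replicate 2 or 3 or basophil replicate 1 (0.124, 0.127 and 0.145), in a range of 0.0146 to 0.145 for Hmgcs1. Idi1, the isopentenyl diphosphate isomerase, averaged 8.09 ± 2.22 CPM in DN-GMPs and 3.97 ± 0.614 in basophils, which is 0.499 times the DN-GMP level on the log2 means (adjusted p = 0.0331). That call was lost without DN-GMP replicate 3 or basophil replicate 1 or 3 (0.113, 0.092 and 0.0626), in a range of 0.0118 to 0.113 for Idi1. An antisense gene shares 12.1% of the exon bases of Hmgcs1 and another transcript 9.2% of those of Idi1, and the library kits do not mark strand.

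The other 3 genes of the arm were not called in any comparison. Mvk, mevalonate kinase, varied most between libraries, at 17.9, 27.0 and 20.5 CPM in Pre-BMPs and 4.37, 9.63 and 0 in basophils. With basophil replicate 3 at 0 reads, the log2 change of Mvk from Pre-BMPs was -4.77 with an SE of 1.87 (limma adjusted p = 0.0765), and without that library it was -1.73 and called (0.0195). The adjusted p of this change in Mvk ran from 0.0195 to 0.19 over the alternatives, and the change was also called without basophil replicate 2 (0.0198) and, with all libraries kept, with 5 reads added (0.0355) or voom weights (0.0332). Pmvk, phosphomevalonate kinase, averaged 16.7, 21.4, 20 and 13.6 CPM. Mvd, the decarboxylase, averaged 8.54, 9.73, 2.77 and 4.74 CPM, with basophil libraries at 1.85, 2.43 and 9.94.

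From squalene to cholesterol, 3 of the 11 genes rose in basophils against DN-GMPs and 3 fell, or 27.3% and 27.3% beside 23.2% and 23.2% of all genes, which is near the background. The calls of Sqle, Lss and Sc5d in this comparison held under every alternative that was run, and those of Ebp, Nsdhl and Hsd17b7 did not. The summed level was 294 to 306 CPM in DN-GMPs and 346 to 411 in basophils. Over both arms of the sterol pathway together, the sum averaged 449, 469, 480 and 465 CPM along the path, while the mevalonate arm alone averaged 151 in DN-GMPs and 82.2 in basophils.

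Sqle (ENSMUSG00000022351, chromosome 15, 59315077 to 59331192, plus strand), squalene epoxidase, a rate-limiting enzyme of the late pathway, stood at 38.1, 55.7 and 50 CPM in DN-GMPs and 64.6, 51.4 and 39.9 in Pro-BMPs. The later stages held 48.2, 68.7 and 44.5 (Pre-BMPs) and 15.5, 25.6 and 11.5 (basophils). The 9 progenitor libraries overlapped one another and lay above all basophil libraries. The log2 change at the last step was -1.67, which is 3.19-fold lower (SE 0.306, limma adjusted p = 1.69e-03), and from DN-GMPs it was -1.51 (adjusted p = 1.81e-03). Lss (ENSMUSG00000033105, chromosome 10, 76531588 to 76557138, plus strand), lanosterol synthase, acts directly after Sqle and moved the other way. Its libraries stood at 13.2, 14.3 and 6.13 CPM in DN-GMPs and 10.2, 24.4 and 12.8 in Pro-BMPs. The libraries of Pre-BMPs gave 30.1, 34.9 and 30.1, those of basophils 82.2, 70.4 and 41.1. The rise from DN-GMPs to basophils was 2.56, or 5.89-fold (SE 0.403, adjusted p = 3.31e-04), while no single step was called (0.48, 1.11 and 0.97). Sqle over Lss in CPM was 2.88 to 8.15 in DN-GMPs, 1.48 to 1.97 in Pre-BMPs and, in basophils, 0.188 to 0.364. This ratio was not planned either, and it restates the opposite moves of the 2 genes. The end-to-end calls of both genes and the last-step call of Sqle held under every alternative that was run.

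Sc5d (ENSMUSG00000032018, chromosome 9, 42251595 to 42264256, minus strand), the sterol desaturase near the end of the path, fell into Pre-BMPs and rose into basophils. It stood at 29.0, 30.0 and 24.1 CPM in DN-GMPs and 34.5, 35.2 and 39.2 in Pro-BMPs. Pre-BMPs followed at 22.1, 14.1 and 22.5, and basophils at 83.6, 92.2 and 60.3. Pre-BMPs were the lowest population and basophils the highest, with no overlap between them and any other. The log2 change was -0.92 from Pro-BMPs to Pre-BMPs (SE 0.226, limma adjusted p = 0.0269), 2.02 from Pre-BMPs to basophils (adjusted p = 5.60e-05) and 1.49 from DN-GMPs to basophils (adjusted p = 2.46e-04). The first of these was lost without Pro-BMP replicate 1, 2 or 3 or Pre-BMP replicate 2 (0.0621, 0.0728, 0.0779 and 0.0827), in a range of 0.0133 to 0.0827 for Sc5d at that step, and the other two held under every alternative that was run. Ebp, the sterol isomerase before Sc5d, averaged 60.2 ± 3.74 CPM in Pre-BMPs and 99.9 ± 15.6 in basophils, a log2 change of 0.72 (adjusted p = 4.52e-03). Scaling by reads on genes ended that call of Ebp (0.0731, the highest of its alternatives, which began at 2.42e-03). From DN-GMPs, at 74.7 ± 6.84, the log2 change of Ebp was 0.41 with overlapping libraries (adjusted p = 0.0481). That call was lost in 9 alternatives, among them scaling by reads on genes (0.463) and the absence of DN-GMP replicate 2 or 3 (0.129 and 0.1) or basophil replicate 2 or 3 (0.139 and 0.144), in a range of 0.0157 to 0.463.

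The called falls of Nsdhl and Hsd17b7, both of which act on the sterol ring after lanosterol, were less stable. Nsdhl averaged 28.6 ± 4.66 CPM in DN-GMPs and 16.9 ± 3.80 in basophils, a log2 change of -0.77 (limma adjusted p = 0.0423). The call was lost when any 1 DN-GMP replicate was left out (0.13, 0.0568 and 0.0655) and without basophil replicate 1 or 2 (0.141 and 0.0735), in a range of 0.0109 to 0.141 for Nsdhl. Hsd17b7 stood at 10.1, 15.0 and 12.3 CPM in DN-GMPs and 0.625, 6.87 and 4.36 in basophils, a log2 change of -2.21 (adjusted p = 0.0321). The call was lost when any 1 DN-GMP replicate was left out (0.0531, 0.0829 and 0.0702) and without basophil replicate 1 (0.0805), in a range of 0.01 to 0.092 for Hsd17b7. The 5 remaining genes of this arm were not called. Fdft1 (squalene synthase) averaged between 10.9 and 21.9 CPM over the 4 populations, and Cyp51 (lanosterol demethylase) between 28.0 and 41.8. Msmo1 (a methylsterol oxidase) averaged between 23.9 and 33.8 CPM, Dhcr7 (the reductase that yields cholesterol) between 21.2 and 34.6, and Tm7sf2 (a sterol reductase) between 3.75 and 7.07. Exons of Ctsb share 18.3% of the exon bases of Fdft1 and those of Vps51 12.1% of Tm7sf2, so both counts are uncertain.

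Among the regulators, the transcription factor gene Srebf2 rose while Insig1, itself a known SREBP target and the retention factor, fell. Srebf2 (ENSMUSG00000022463, chromosome 15, 82147181 to 82205379, plus strand), which drives mainly sterol genes, stood at 57.0, 62.0 and 65.9 CPM in DN-GMPs and 93.0, 58.0 and 85.5 in Pro-BMPs. The later stages held 134, 91.0 and 111 (Pre-BMPs) and 134, 94.1 and 128 (basophils). Basophils lay above DN-GMPs without overlap, with a log2 change of 0.93 (SE 0.209, limma adjusted p = 3.48e-03) that held under every alternative that was run. No single step was called (0.33, 0.52 and 0.08). Srebf1 (chromosome 11, 60199089 to 60222581, minus strand), which drives mainly fatty acid genes, stood at 33.0, 72.4 and 66.8 CPM in DN-GMPs and 86.9, 51.7 and 83.9 in basophils, which overlapped. Its averages along the path were 57.4 ± 21.3, 65.0 ± 13.6, 75.4 ± 7.15 and 74.2 ± 19.5 CPM, and it was not called in any comparison (end-to-end log2 change 0.41, limma adjusted p = 0.285). The counts are per gene and do not separate the isoforms of Srebf1.

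Insig1 (ENSMUSG00000045294, chromosome 5, 28071363 to 28078662, plus strand) stood at 11.8, 13.3 and 13.8 CPM in DN-GMPs and 14.9, 26.8 and 25.7 in Pro-BMPs. The libraries of Pre-BMPs gave 12.6, 18.1 and 15.9, those of basophils 3.86, 6.57 and 7.31. It was highest in Pro-BMPs and lowest in basophils, whose libraries lay below all others. The log2 change was -1.43 from Pre-BMPs (SE 0.323, limma adjusted p = 6.09e-03) and -1.18 from DN-GMPs (adjusted p = 0.0109), and both held under every alternative that was run. The first step, 0.75, was not called (adjusted p = 0.327).

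Scap (ENSMUSG00000032485, chromosome 9, 110333288 to 110384950, plus strand), the escort of the SREBPs, dipped in Pre-BMPs as Sc5d did. It stood at 64.8, 57.5 and 75.7 CPM in DN-GMPs and 45.2, 62.6 and 61.5 in Pro-BMPs. Pre-BMPs followed at 24.9, 21.9 and 30.2, and basophils at 47.4, 45.6 and 46.1. Every Pre-BMP library was below every other library. The log2 change was -1.14 into Pre-BMPs (SE 0.182, limma adjusted p = 2.82e-03) and 0.87 out of them (adjusted p = 3.91e-03), and both held under every alternative that was run. Basophils against DN-GMPs gave -0.50 (adjusted p = 0.0414), lost in 6 alternatives. These included leaving out DN-GMP replicate 1 or 3 (0.0777 and 0.137) or basophil replicate 1, 2 or 3 (0.0741, 0.0882 and 0.0823), in a range of 5.36e-03 to 0.137 for Scap. A transcript on the opposite strand, 5830462I19Rik, shares 13.2% of the exon bases of Scap.

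The rest of lipid metabolism was counted in lists of related genes, and none of these lists was tested as a set. Beside the sterol enzymes above, 14 further genes of sterol and isoprenoid synthesis and SREBP processing had 3 higher and 5 lower in basophils against DN-GMPs, or 21.4% and 35.7% beside 23.2% and 23.2% of all genes. Erlin1, an endoplasmic reticulum protein of the Insig pathway, fell from 127 ± 12.5 CPM in DN-GMPs to 14.7 ± 4.83 in basophils (log2 change -3.16, limma adjusted p = 5.78e-07). Pdss1 and Pdss2, the subunits that make the tail of ubiquinone from the same isoprenoids, averaged 33.7 ± 2.06 and 15.7 ± 4.06 CPM in DN-GMPs and 8.92 ± 3.49 and 5.81 ± 3.76 in basophils. The end-to-end log2 change of Pdss1 was -1.98 (adjusted p = 2.31e-04). That of Pdss2 was -1.68 (adjusted p = 0.0203), and its call was lost without DN-GMP replicate 2 or 3 (0.0515 and 0.0674) or basophil replicate 3 (0.0568), in a range of 5.80e-03 to 0.0726 for Pdss2.

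Among genes of sterol uptake, storage, transport and efflux, 6 of 16 were higher and 3 lower in basophils against DN-GMPs, or 37.5% and 18.8% beside 23.2% and 23.2% of all genes. Soat2, which esterifies cholesterol for storage, stood at 0.318, 0.103 and 0.472 CPM in DN-GMPs and 39.7, 28.1 and 28.9 in basophils, a log2 change of 6.92 (limma adjusted p = 1.13e-05). Its paralog Soat1 went from 91.8 ± 3.88 to 23.8 ± 6.85 CPM over the same pair of populations (log2 change -1.99, adjusted p = 7.12e-04). Mylip, a ubiquitin ligase induced by sterols, rose from 10.1 ± 2.98 to 97.0 ± 6.90 CPM (3.31, adjusted p = 9.28e-07). Abcg1, a cholesterol exporter, rose from 7.20 ± 3.80 to 40.4 ± 13.9 (2.63, adjusted p = 3.81e-03). Soat1 was named after its values were seen.

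Among 16 other genes of fatty acid synthesis, elongation and activation, 5 were higher and 2 lower from end to end, or 31.2% and 12.5% beside 23.2% and 23.2% of all genes. The median log2 change of the 16 was 0.04. Hacd4, a dehydratase of the elongation cycle, stood at 4.41, 6.65 and 3.33 CPM in DN-GMPs, at 16.9 ± 4.33 in Pre-BMPs, and at 573, 405 and 447 in basophils. Its log2 change at the last step was 4.83 (SE 0.375, adjusted p = 3.71e-06 by limma). Acss2, which makes acetyl-CoA from acetate, rose in every step, from 8.5 ± 1.47 CPM through 32.1 ± 10.7 and 85.1 ± 16.8 to 437 ± 53.2 (5.69 from end to end, adjusted p = 2.66e-08). Its first step, 1.87 (adjusted p = 1.99e-03), was lost with voom weights (0.0654, the highest for Acss2, whose range began at 1.66e-04). Acacb, the second acetyl-CoA carboxylase gene, was low throughout, at 2.81, 2.74 and 0.67 CPM in Pre-BMPs and 0.0231, 0.0231 and 0 in basophils, and its call at the last step (adjusted p = 0.0189) was lost without Pre-BMP replicate 1 or 2 or basophil replicate 3 (0.0627, 0.0642 and 0.057), in a range of 4.66e-03 to 0.0642 for Acacb.

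Of the genes of fatty acid oxidation, 9 of 15 were lower and 0 higher at the last step, or 60% beside 16.5% of all genes (limma; at an unadjusted p under 0.05 the counts were 10 lower and 2 higher, and with voom weights 9 and 0). Hadh, an enzyme of the oxidation cycle, fell from 63.8 ± 7.02 CPM in Pre-BMPs to 18.9 ± 10.1 in basophils (log2 change -1.88, adjusted p = 4.93e-04). Etfa and Etfb, which carry electrons of fatty acid oxidation to the respiratory chain, fell from 105 ± 7.86 to 48.9 ± 13 CPM (-1.13, limma adjusted p = 6.42e-04) and from 46.4 ± 4.44 to 28.6 ± 3.08 (-0.70, adjusted p = 4.49e-03). Of 18 genes of glycerolipid synthesis and lipid droplets, 7 were higher and 3 lower from end to end, or 38.9% and 16.7% beside 23.2% and 23.2% of all genes. Dgat2, which makes triglyceride, stood at 10.3, 30.0 and 22.9 CPM in DN-GMPs and 0.185, 0.0463 and 0.554 in basophils (-6.69, adjusted p = 5.06e-03). Mgll, a monoglyceride lipase, and Agpat3, an acyltransferase, were near 0 in several libraries and averaged 6.65 ± 2.99 and 6.49 ± 1.65 CPM in basophils. Their calls, Mgll against DN-GMPs (adjusted p = 0.0469) and Agpat3 against Pre-BMPs (adjusted p = 0.0273), were each lost in 5 of 6 fits that left out a library, with an adjusted p up to 0.163 for Mgll and 0.101 for Agpat3.

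**Figure D4:**
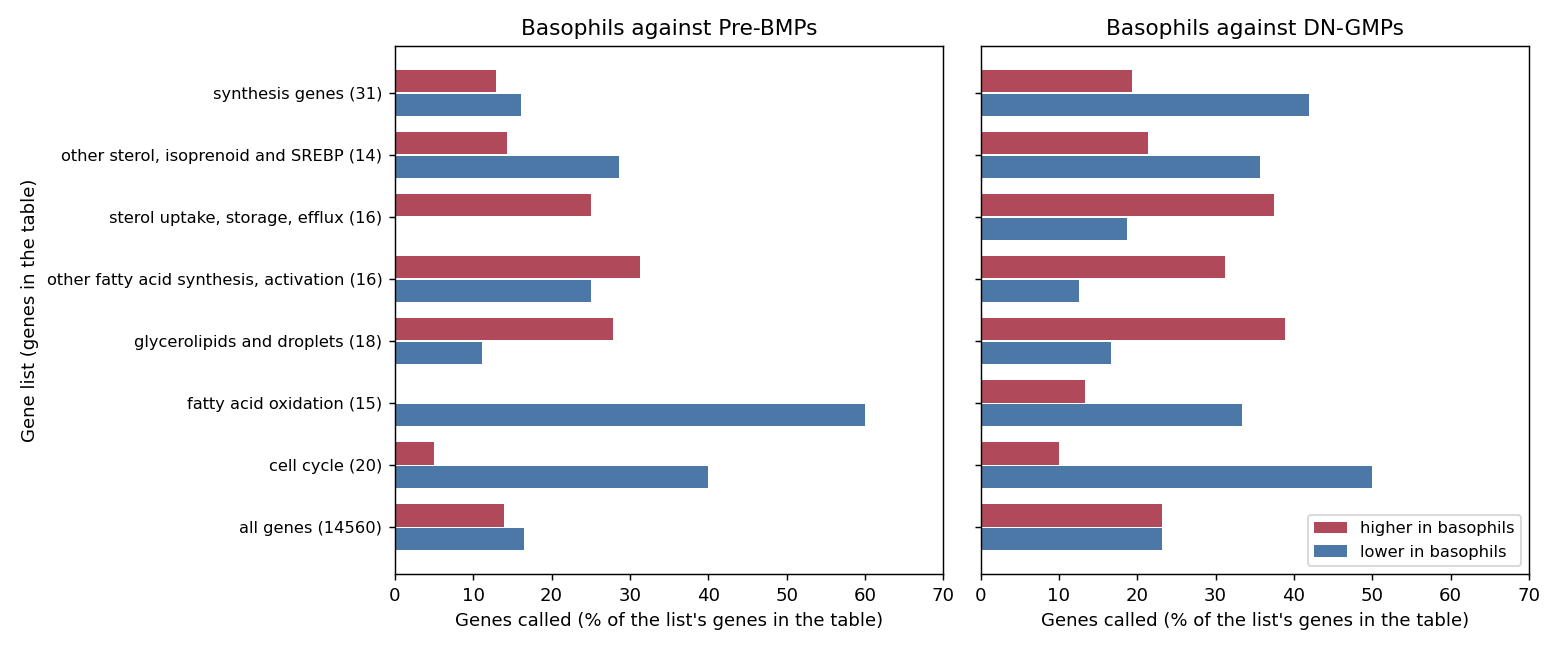
Percent of the genes of each lipid list, of the cell cycle list and of all genes (vertical axis, with the number of genes) that were called higher or lower in basophils (horizontal axis, from 0), against Pre-BMPs on the left and DN-GMPs on the right. The synthesis genes have 41.9% lower against DN-GMPs beside 23.2% of all genes, and fatty acid oxidation has 60% lower against Pre-BMPs beside 16.5%.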

How the data were processed

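RNA of 4 sorted populations was sequenced with SmartSeq v4 and Nextera XT libraries, 3 per population, per the labels' protocols. The authors deposited 1 table of log2 values. Undoing the log2 gave whole reads plus 0.5, per 1000000 of a scaled library size, for 100% of the values (tolerance 0.001 reads). CPM here means reads per 1000000 of that size. Trimmomatic, STAR, deepTools and HTSeq are named, without versions, per the submitters' processing notes. Genome build and annotation: not given in the sources used here. Gene positions and exon lengths are from GENCODE M21 (GRCm38), which holds 99.69% of the gene IDs. The 3 rows for reads on no gene were left out: 6.65% to 12.6% of reads per library had no feature, 3.63% to 4.14% were ambiguous and 8.51% to 12.1% were not unique. The share with no feature was 6.65% to 7.77% in DN-GMPs and 11.2% to 12.6% in basophils.

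Printed CPM were taken back from the log2 values without the 0.5 read. All 14560 genes and 12 libraries were fitted with limma 3.58.1 in R 4.3.3, with 1 mean per population, a mean-variance trend, two-sided tests and Benjamini-Hochberg adjusted p-values over these genes, called under 0.05. A log2 change is the difference between 2 population means of the log2 values. The method was tested on simulated data for basophils against DN-GMPs, with 1 fixed spread for all genes. There, 52% of changes of 1 log2 unit were called and 100% of changes of 2. A gene that was not called may therefore still differ. Members and lists were chosen with earlier results of these data known. Values are given in full for the 6 called members with the largest log2 change in each comparison and for the regulators. In other lists, the 3 called genes with the largest change are named. Alternatives were 5 reads added, voom weights, no trend, quantile normalization, scaling by reads on genes, filters on low genes, fitting only the populations compared, a replicate block and each library left out.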

Additional observations from a re-analysis of the deposited data

How the results depend on the processing

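Of the 34 calls made on members in the 4 comparisons, none changed direction in any alternative run. The numbers that kept their call throughout were 1 of 1 (Pro-BMPs against DN-GMPs), 3 of 5 (Pre-BMPs against Pro-BMPs), 6 of 9 (basophils against Pre-BMPs) and 11 of 19 (basophils against DN-GMPs). Of members not called, 9 of 22 gained a call at the last step in at least 1 alternative, 3 of 12 from end to end, and 0 at the other steps. With a library left out, members called in Pre-BMPs against Pro-BMPs numbered 3 to 5 and in basophils against DN-GMPs 12 to 16. The 12 were without basophil replicate 1, where 6027 of all 14560 genes were called. Genes called in Pro-BMPs against DN-GMPs numbered 369, 228 with only the populations compared, and 231 to 481 with a library left out, the 231 being without Pro-BMP replicate 3. With voom weights 59.4% of these calls were higher, not 78.9%. In Pre-BMPs against Pro-BMPs leaving out a library gave 778 to 1093 genes, not 1382, with the lowest counts without Pro-BMP replicate 2 (778) and Pre-BMP replicate 3 (792). The filter of 10 reads in 3 libraries removed 0 genes. Same-numbered libraries showed at most weak shared deviation, with correlations of -0.123 to 0.127 over 18 pairs. The 2 pairs above 0.1 were both of Pro-BMPs with Pre-BMPs (0.108 and 0.127). Of the 12 libraries, 6 correlated best with their own number, so a weak pairing is not excluded. With a replicate block the members called numbered 1, 5, 9 and 17 in the 4 comparisons in path order, and the genes 312, 1216, 4286 and 6587. For Mvk, with 1 basophil library at 0 reads, the call at the last step depended on the number of reads added, the weights and the library left out.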
